A study of Rattus norvegicus with 5 samples.

Results

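C6 is 1 of 4 rat hepatocellular carcinoma lines in this series, and its messenger RNA profile was set against those of the lines C5F, N1 and L2. Each line was measured on 1 single-colour CodeLink array, so C6 is 1 of 5 arrays in all, and every value below describes that array without an error of its own. C6 and C5F were classed by the submitters as low in metastatic ability, and N1 and L2 as high. All 4 lines stem from liver tumours of male F344 rats given N-nitrosomorpholine and diethylnitrosamine, with a stated age of 31 weeks. The reference was liver tissue from a male SD rat, untreated and 50 weeks old, thus of another strain and age, so that strain, age and tumour state cannot be told apart between C6 and liver. With single arrays, no p-value can be given for any difference between lines. In RNA from a whole culture or tissue, fewer cells of a type and less RNA per cell cannot be told apart. The line shares only its name with the rat glioma line C6.

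Hepatocellular carcinoma arises from the main parenchymal cell of the liver. As such cells dedifferentiate they often stop making plasma proteins, while adhesion, inflammatory and detoxification genes follow different courses in different tumours. Lines raised by the same carcinogens can therefore share one origin and still differ in which of these programmes they run.

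The arrays carried probes for 12198 named genes. Of these, 11148 had a usable spot in C6 and 9290 had usable spots in C6 and in all 3 other lines on the same probe. The scanner software called 5279 of the 9290 above background in at least 1 line, and these formed the comparison. The remaining 4011 were near background in all 4 lines. In C6 itself 3978 genes were above background, and 3165 were so in all 4 lines. Over all 33849 discovery probes, 34.3% were above background in C6, within the range of 32.7% to 39.2% over the other lines. Signals are quantile-normalised raw intensities with a floor of 2.53, and a gene counts as above when C6 exceeds the brightest other line, and as below when C6 lies under the dimmest.

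C6 stood apart from the other lines in fewer genes than any of them did when both directions were counted. At a 3-fold margin C6 was above the other 3 lines in 55 genes, which is 1.04% of those compared, and below them in 18, or 0.341%. At 4-fold the counts were 37 (0.701%) and 9 (0.17%), and at 8-fold 16 (0.303%) and 2 (0.0379%). Genes at least 4-fold apart in either direction numbered 46 for C6 (0.871%), 74 for N1 (1.4%), 117 for L2 (2.22%) and 128 for C5F (2.42%). Below the others alone, N1 had fewer genes than C6 at 3-fold, 14 against 18. In both directions together at 4-fold, C6 had the fewest of the 4 lines under each of the 7 ways of scaling or bounding the signals that were tried.

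Many of these margins rest on spots near background. In 38 of the 55 genes above, all 3 other lines were near background, and in 17 of the 18 genes below, C6 was. When a spot near background was counted at the lowest signal called above background on its array (11.8 in C6, 7.87 in C5F, 13 in N1 and 11.2 in L2), 33 genes (0.625%) remained at least 3-fold above, 22 (0.417%) at least 4-fold and 6 (0.114%) at least 8-fold. Only 1 gene (0.0189%), Csrp2, remained at least 3-fold below. A fold that rests on such a bound is written below as "at least". The genes nearest the 3-fold line were Lhfpl6 and Zc3h12a just inside at 3.06-fold and 3.10-fold above. Fst at 2.9998-fold and Tgm2 at 2.99-fold lay just outside. On the other side Pip4p2 lay just inside at 3.15-fold below and Septin4 just outside at 2.95-fold.

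**Figure D1:**
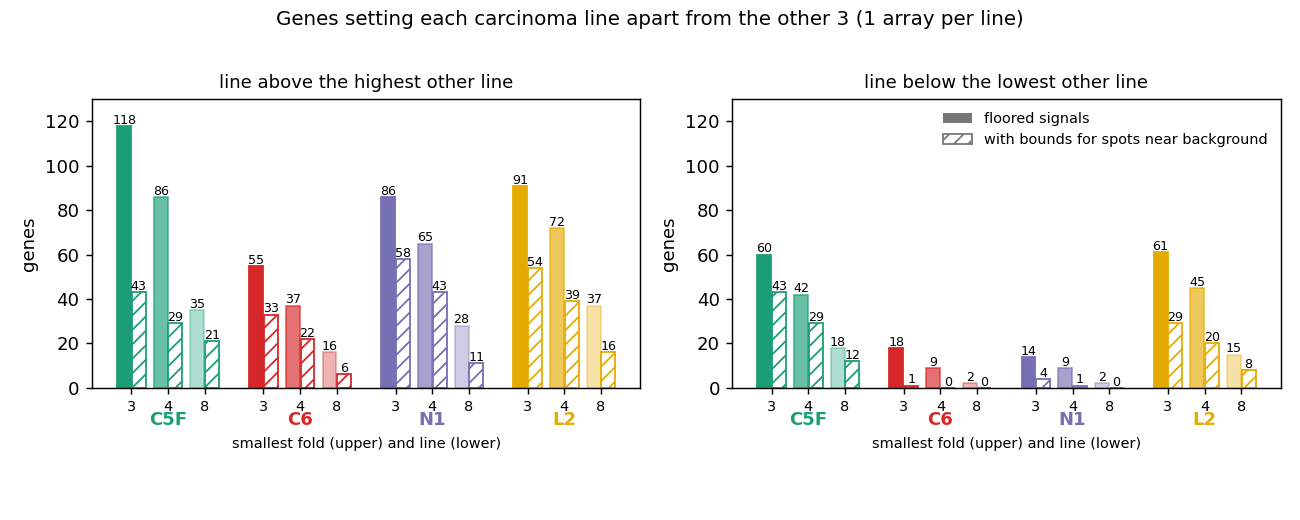
Number of genes in which each carcinoma line lay above the highest (left) or below the lowest (right) of the other 3 lines by at least 3-, 4- or 8-fold, 1 array per line. Filled bars use floored signals and hatched bars count spots near background at the lowest signal called above background, which takes C6 from 55 to 33 genes above at 3-fold and from 18 to 1 below.

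The intermediate place of C6 was also seen without a margin. C6 was the brightest of the 4 lines in 1159 genes (22%), the dimmest in 1100 (20.8%) and in between, ties at the floor included, in 3020 (57.2%). The share in between was 50.7% for C5F, 52.7% for N1 and 42.9% for L2. Among the 3165 genes above background in all 4 lines it was 57.1% for C6, 51.0% for C5F, 52.0% for N1 and 39.9% for L2. Pairs that included C6 had 305 (with N1), 332 (with L2) and 360 (with C5F) genes at least 4-fold apart, against 364 to 558 for the pairs without it. Correlations were taken across the 10409 probes that were usable on all arrays and above background on at least 1. The Pearson correlation of C6 was 0.88 with N1, 0.87 with L2, 0.86 with C5F and 0.54 with liver. These coefficients are across probes, which are not independent replicates. By this measure and by the 4-fold counts the nearest line to C6 was N1, of the other metastatic class. By the median absolute log2 difference over the genes compared it was the class partner C5F, with 0.36 against 0.41 for N1 and 0.45 for L2.

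The genes highest in C6 were a mixed group of signalling, secreted and transport genes. Txk, a tyrosine kinase of the TEC family best known from T cells, read 632 in C6, 23.4 in C5F, 19.1 in N1, 3.51 near background in L2 and 94.0 in liver. C6 was 27.0-fold above C5F, its nearest line, and no other array reached its level. Il1rl1, which encodes the interleukin-33 receptor ST2, read 578 in C6 against 24.1 in C5F, 5.84 in N1, 5.63 in L2 and 4.26 in liver, the last 3 near background. C6 was 24.0-fold above C5F on this probe. A second Il1rl1 probe was irregular in C6 and C5F, with log2 signals of 5.37 in N1, 5.75 in L2 and 4.52 in liver, and the other one was near background on all arrays, so the difference stands on 1 probe.

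Dlc1, a gene named for its loss in liver cancer, read 214 in C6 and 363 in liver, but 3.75 in C5F, 2.53 in N1 and 8.37 in L2, all near background. C6 was thus at least 16.4-fold above the other lines and was the line nearest to liver. A second Dlc1 probe was near background on all 5 arrays. S100a9, a calcium-binding protein of neutrophils and stressed epithelia, followed the same layout. It read 96.4 in C6 and 79.2 in liver, with 13.5 in N1 and the floor in C5F and L2, which puts C6 at least 7.12-fold above. Akr1c3, an aldo-keto reductase, read 91.0 in C6 and 27.4 in liver, against 3.27 in C5F and the floor in N1 and L2. C6 was at least 6.98-fold above the other lines, and above liver too.

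Several of the remaining top genes were near background in liver as well. Tmem171, a membrane protein, read 174 in C6 and between 3.06 and 7.27 elsewhere, at least 13.3-fold above. Plscr2, of the phospholipid scramblase family, was at least 9.80-fold above with 128 in C6, and Slc35g2, a solute carrier, at least 9.60-fold with 125. Havcr1, the kidney injury molecule of damaged tubules, read 88.0 in C6 and at most 6.91 on the other arrays, at least 6.75-fold above the lines. Its second probe was near background in all 4 lines and above it in liver, so this difference too stands on 1 probe. Ryr3, a calcium release channel of the endoplasmic reticulum, read 85.4 in C6 and at most 2.91 elsewhere, at least 6.55-fold above. Slc1a1, a transporter of glutamate and cysteine, read 76.2 in C6 and at most 11.1 elsewhere, at least 5.85-fold above. Cryba4, a lens crystallin, read 81.7 in C6 and at most 4.23 elsewhere, at least 6.27-fold above.

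The 15 widest margins also included 3 genes for secreted signals. Nppb, the B-type natriuretic peptide, read 132 in C6 and 17.3 in L2, with all other arrays near background, a 7.62-fold difference. Apln, the ligand of the apelin receptor, read 114 in C6 and 20.3 in N1, with the rest near background, a 5.64-fold difference. Its second probe gave the same direction, at least 2.04-fold. Csf3, the granulocyte colony-stimulating factor, read 159 in C6, 29.4 in L2, 13 in C5F and 14 near background in N1, a 5.42-fold difference over L2. For each of these 3 genes C6 lay above every other array, and liver was near background.

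**Figure D2:**
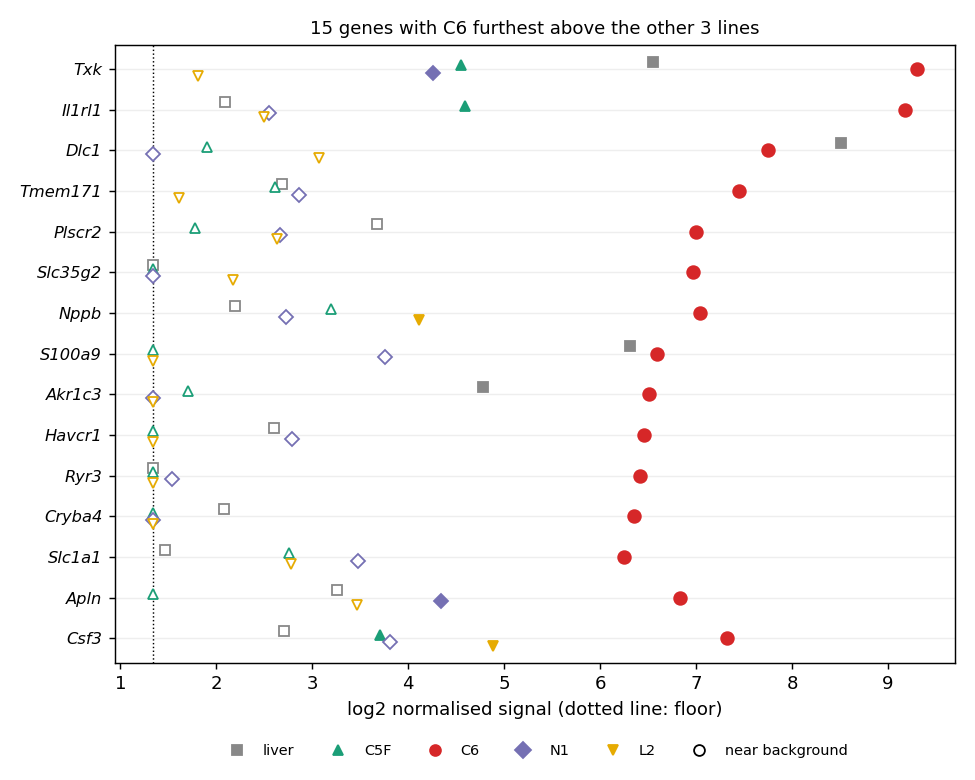
Log2 normalised signal of the 15 genes with the widest margin of C6 over the other 3 lines, 1 array each for liver and the 4 lines. Open symbols are spots near background. C6 is the rightmost symbol in every row except Dlc1, where liver reads higher, and liver is above background only for Txk, Dlc1, S100a9 and Akr1c3.

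For 5 of the 55 genes all 4 lines were above background, and these margins need no bound. Gpr137b, a lysosomal membrane protein, had log2 signals of 9.21 in C6, 6.89 in L2, 6.76 in C5F, 5.53 in N1 and 6.02 in liver, so that C6 was 4.98-fold above L2. Chst12, a chondroitin sulfotransferase, was 3.61-fold above the next line, Sqor, a mitochondrial sulfide oxidoreductase, 3.20-fold, and Otud3, a deubiquitinase, 3.10-fold. Cxcl1, a chemokine that draws neutrophils, read 2030 in C6, 635 in L2, 532 in C5F and 298 in N1, and its liver spot was irregular. C6 was 3.20-fold above L2. Satb1, a chromatin organiser, and Rab32, a small GTPase, were also measured in C6 and in its 2 nearest lines, at 4.70-fold and 3.45-fold above N1.

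Cxcl1, Csf3 and Lcn2 are textbook targets of the inflammatory factor NF-kB, and all 3 were brightest in C6. They were picked for that level, and no full set of NF-kB targets was examined. Other known targets did not follow. Vcam1 was dimmest in C6, with a log2 signal of 4.75 against 4.79 to 5.11 in the other lines. Icam1 was near background in C6 at 3.69 and above background in C5F and L2 at 3.83 and 3.74. Whether such targets as a group were high in C6 was not tested. Lcn2, the siderophore-binding lipocalin, had log2 signals of 7.05 in C6 and 5.88 in L2, and was near background in C5F, N1 and liver. Because these genes shared a high level in C6, the promoters of Cxcl1 and Lcn2 were searched for the NF-kB consensus on both strands, in the 250 bases before to 50 after each start site (RefSeq, assembly GRCr8). The promoter of Csf3 was not analysed here. This search was chosen after the values had been seen. The consensus occurs in 2515 of 33469 promoters in that table (7.51%). It also occurs in 8 of the 44 genes above at 3-fold that have an entry there, namely Akr1c3, Cxcl1, Kif12, Ptpre, Ryr3, Spsb4, Tmem171 and Twist1. The 33469 promoters were not limited to genes measured on the arrays, as the 44 were, so these shares are not like for like. No share was taken over the genes compared, and enrichment was not tested. The 250 bases before the start sites of Cxcl1 and Lcn2 are shown 5′ to 3′ because these 2 promoters hold matches, in capitals. They lie at chr14:17479322-17479571 and chr3:36081781-36082030, both on the minus strand. Cxcl1 has 2 overlapping matches, with first bases at -84 and -83 from the start site, and Lcn2 has 1 at -242.
Cxcl1: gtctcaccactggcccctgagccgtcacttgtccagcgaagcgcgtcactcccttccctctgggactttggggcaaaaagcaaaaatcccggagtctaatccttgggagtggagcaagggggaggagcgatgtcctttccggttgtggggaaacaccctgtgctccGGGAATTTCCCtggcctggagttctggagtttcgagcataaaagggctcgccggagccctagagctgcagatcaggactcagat
Lcn2: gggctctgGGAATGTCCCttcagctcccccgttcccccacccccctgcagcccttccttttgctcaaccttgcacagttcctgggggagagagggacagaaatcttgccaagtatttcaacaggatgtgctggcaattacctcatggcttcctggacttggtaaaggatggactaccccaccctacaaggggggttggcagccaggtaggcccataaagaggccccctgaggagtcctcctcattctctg
A match is only a stretch of letters in these windows, and binding was not measured in this study.

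Inflammatory genes as a list did not all move with these examples. Of 16 chemokine, cytokine and receptor genes measured in a line, C6 was the brightest line in 7 and the dimmest in 2, against 22% and 20.8% over all genes compared. Il1rl1 and Cxcl1 passed 3-fold above, and none passed below. The median difference of C6 from the median of the other 3 lines was 0.22 on the log2 scale, against 0 over all genes. Csf1, the macrophage growth factor, had log2 signals of 7.44 in C6, 6.51 in C5F, 6.28 in N1 and 5.20 in L2. Ccl20, by contrast, was at the floor in C6 and read 4.25 in C5F and 4.30 in L2. Among 5 measured acute phase and interleukin-6 genes, Socs3, the feedback inhibitor of that pathway, differed little, with 4.08 in C6 and 3.92 to 4.15 in the other lines. Stat3 read 8.14 in C6 and 8.15 to 8.36 elsewhere. Of 17 interferon and antigen presentation genes only Rsad2, the antiviral protein viperin, passed. It read 67.5 in C6 and 62.9 in liver against near-background spots in the other lines, at least 5.18-fold above, whereas Ifitm3 was at the floor in C6 and read 9.58 on the log2 scale in liver.

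The median difference of C6 was 0.32 over 15 measured epithelial genes. Of these, 5 were highest and 2 lowest in C6, the same counts as in C5F, against 22% and 20.8% over all genes for C6. Esrp1, a splicing regulator of epithelial cells, read 48.5 in C6 and at most 4.21 on every other array, at least 3.72-fold above, and was the only one past 3-fold. Cdh1, the adhesion molecule E-cadherin, read 287 in C6, 118 in C5F, 105 in N1, 4.09 near background in L2 and 435 in liver. C6 was the line nearest to liver for Cdh1 and lay 2.43-fold above C5F. Cldn4, a tight junction claudin, had a log2 signal of 4.59 in C6 and was near background on the other 4 arrays. Pkp3, a desmosomal plakophilin, read 4.19 in C6 and 6.82 in liver on that scale and was near background in the other lines. Tjp1, the junction scaffold ZO-1, went the other way, with 7.33 in C6 and 8.13 to 8.32 in the other lines.

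Mesenchymal genes did not form the reverse of this. Over 17 measured genes the median difference was -0.10, which turned to 0.22 above the median of all genes when arrays were scaled by their 75th percentile, so no direction is given. Sparc, a collagen-binding matrix protein, was at the floor in C6 and read 12.5 in C5F, 93.5 in N1, 210 in L2 and 614 in liver. The margin to C5F is small once bounded, at least 1.06-fold, and a second Sparc probe was near background in all 4 lines. Twist1, a transcription factor of mesenchymal transition, was above background only in C6, at 15.6, at least 1.20-fold above the other lines. Vim, the filament protein vimentin, read 514 in C6, between 75.3 in C5F and 1120 in N1. Among matrix proteases, Mmp3 and Mmp10, both stromelysins, were brightest in C6 with log2 signals of 5.70 and 5.07, against 4.63 in L2 and 3.70 near background in N1 as the next lines. Mmp11 was dimmest there.

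The genes lowest in C6 showed smaller margins. Csrp2, a LIM-domain protein of the cytoskeleton and nucleus, read 17.7 in C6, 58.0 in L2, 67.6 in N1, 189 in C5F and 36.6 in liver. C6 lay 3.27-fold below L2 and under liver too, with every spot above background. Septin4, a filament-forming GTPase, read 16.2 in C6, 47.8 in N1, 105 in L2, 129 in C5F and 196 in liver, a 2.95-fold difference, also lowest of all 5 arrays. Limd2 was 2.46-fold below the next line with 17.0 in C6, and Tut4, which adds uridines to RNA tails, 2.36-fold with 23.5.

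Lower signals near background in C6 were found for Anxa8, a membrane-binding annexin, with 10.5 in C6 against 25.7 in L2, 132 in C5F and 166 in N1. Dysf, the membrane repair protein dysferlin, read 11.4 in C6 against 25.5 in C5F, 74.6 in L2 and 82.1 in N1. Mmp11, the protease stromelysin 3, read 12.4 in C6 against 23.8 in C5F, 35.2 in L2 and 82.4 in N1. These are differences of at least 2.19-, 2.17- and 1.92-fold. The other lines were above background for all 3 genes and C6 was not. Mcat, Dusp22, Akap7, Mplkip and Cachd1 were at least 2.16-, 2.15-, 2.14-, 2.08- and 2.06-fold below. A second Cachd1 probe was lower in C6 with floored signals, but with the bound its fold was 0.972, so it shows no margin. A second Mmp11 probe, irregular in L2, was 1.5-fold below the remaining lines. A second Mcat probe was near background in L2 with C6 above it. For Gng12, a G protein subunit, the probe used was at least 1.98-fold below, but a second probe read 6.80 in C6 and 6.36 in L2 on the log2 scale, so its direction is not settled. Trim2, a ubiquitin ligase that passed 3-fold with the floor, was lower in C6 on 3 probes, by at least 1.32-, 1.66- and, where N1 was irregular, 6.44-fold, and its remaining probe was near background in all lines.

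**Figure D3:**
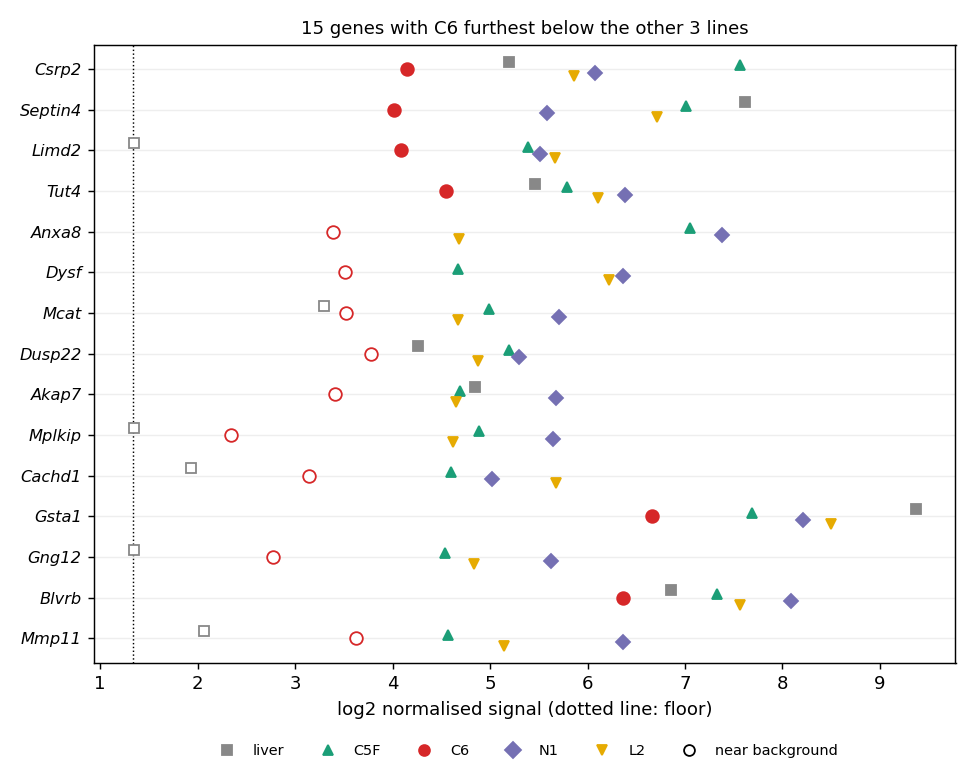
Log2 normalised signal of the 15 genes with the widest margin of C6 under the other 3 lines, drawn as for the genes above. C6 is the leftmost line in every row but is itself near background (open) in 9 of them, and the margins run from 1.92-fold to 3.27-fold.

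Detoxification lists differed in where they placed C6. Of 21 measured glutathione and NRF2 target genes, which defend against oxidants and electrophiles, C6 was the dimmest line in 6 and the brightest in 1, against 20.8% and 22% over all genes, and the median difference was -0.61. C5F gave -0.64, with 11 dimmest, and N1 and L2 gave 0.61 and 0.56, so the low level is shared with C5F. Of 12 cytochrome P450 genes, C6 was the brightest in 5 and the dimmest in 1, with a median of 0.20 that fell 0.04 under that of all genes when arrays were scaled to the median of probes above background. Of 4 glucuronidation and sulfation genes, C6 was the brightest in 2 and the dimmest in 1, with a median of 0.73. No glutathione and NRF2 gene was 3-fold below the next line in C6. Gsta1, a glutathione transferase, read 101 in C6, 206 in C5F, 296 in N1, 361 in L2 and 664 in liver, 2.03-fold below the next line. Gsr, glutathione reductase, had log2 signals of 8.97 in C6, 9.50 in C5F, 10.07 in L2 and 10.32 in N1. Blvrb, which reduces biliverdins, read 82.3 in C6 and 160 to 272 in the other lines, 1.95-fold below C5F, and a second probe was near background everywhere.

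Genes with 1 irregular line were left out of the counts above. Of 1406 such genes, C6 was 3-fold above both remaining lines in 18 and below them in 7. Over the 5279 genes compared with all 3 lines these counts were 55 and 18. Clearing 2 lines demands less by construction than clearing 3, so the genes named here are examples only. Gstt3, a theta-class glutathione transferase, had log2 signals of 5.11 in C6, 8.89 in N1, 9.38 in L2 and 9.70 in liver, a 13.8-fold difference without C5F. Gclc, the catalytic subunit of glutathione synthesis, read 4.71 in C6, 6.72 in L2 and 6.94 in N1, a 4.03-fold difference, again without C5F. Lgals1, the galectin of fibroblasts and many tumours, was 4.78-fold below L2, with 7.28 in C6 and no usable spot in C5F. In the other direction Oasl, an interferon-induced gene, was 7.79-fold above L2 and Plat, tissue plasminogen activator, 4.74-fold above C5F, both without N1. Cbr1, a carbonyl reductase, read 4.38 in C6 and the floor in N1 and L2, at least 1.59-fold above without C5F.

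Over 7 measured fatty acid oxidation genes the median difference was -0.85, or -0.56 with bounds, and C6 was dimmest in 3 and brightest in 0, against 20.8% and 22% over all genes. Cpt2, the inner mitochondrial carnitine transferase, was near background only in C6, at 5.24 against 16.8 to 18.6 in the other lines, at least 1.43-fold below. Acaa2, the last enzyme of the cycle, had log2 signals of 7.92 in C6, 8.63 in C5F, 8.76 in L2, 8.98 in N1 and 10.89 in liver. Over 12 hypoxia response genes the median was -0.49, with C6 brightest in 0 and dimmest in 3, and L2 was lower still, with a median of -0.57, brightest in 0 and dimmest in 7. Ndrg1 read 9.07 in C6 and 9.06 to 10.98 in the others, so C6 and L2 were alike low. The G1 and p53 list had 14 measured genes, of which C6 was dimmest in 7 and C5F in 6, where C6 was dimmest in 20.8% of all genes. C6 was brightest in 1, Cdk6, at 5.62 on the log2 scale against 4.34 to 4.60. Its median was -0.33, or -0.13 with bounds. Cell cycle and replication genes, 23 in all, were brightest in C6 in 6 and dimmest in 6.

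**Figure D4:**
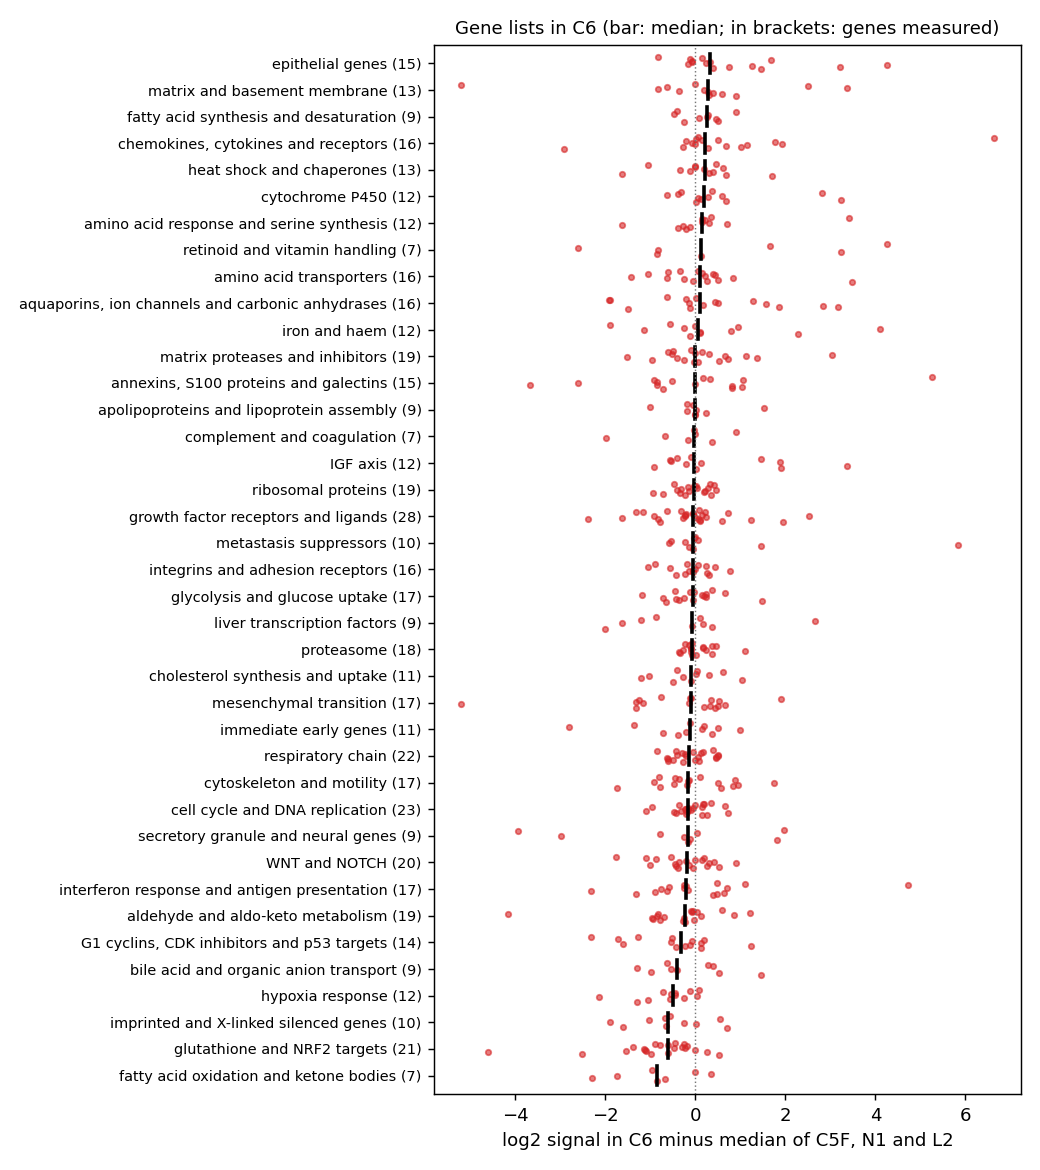
Difference of the log2 signal in C6 from the median of C5F, N1 and L2 for each measured gene of the lists with at least 7 measured genes. Dots are genes, black bars are list medians and brackets give the number of genes, with medians from -0.85 for fatty acid oxidation to 0.32 for epithelial genes.

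Liver identity was low in C6. Alb, the plasma carrier albumin, read 2840 in liver and the floor in all 4 lines. Afp, the fetal carrier alpha-fetoprotein, was near background in C6 at 3.92 and read 3520 in C5F. Of 11 usable hepatocyte markers 3 were above background in C6 (Apoa2, Apob and Hnf4a), and their summed signal was 103 in C6, 98.1 in L2, 155 in N1, 3050 in C5F and 30600 in liver. Hnf4a, the nuclear receptor of hepatocyte identity, had log2 signals of 5.13 in C6, 4.50 to 5.41 in the other lines and 7.07 in liver. Of 7 usable cholangiocyte markers only 2, Ggt1 and Krt19, were above background in C6, and the same 2 were so in L2. Both were also above background in C5F, and Ggt1 in N1. Their list's summed signal was 1420 in C6, 617 in L2, 323 in N1, 2330 in C5F and 102 in liver. Krt19 was not among the list members compared across all 4 lines, so the N1 sum may lack it for want of a usable spot. Of 3047 genes above background in liver, 76.5% were so in C6, against 82.1% in C5F, 75.8% in N1 and 75.3% in L2. In 29 genes C6 alone among the lines shared the call with liver, among them Dlc1, S100a9, Akr1c3, Rsad2, Xdh and Tie1, and the same count was 30 for N1, 32 for L2 and 116 for C5F. In 58 genes liver and the other 3 lines were above background and C6 was not, among them Sparc and Cpt2, and the same count was 24 for C5F, 64 for N1 and 81 for L2. Markers of other cell types were mostly near background in C6. Of the stellate cell list Reln and Thy1 were above background, of the endothelial list Pecam1 and Tie1, of the macrophage list Cd68, Clec4f and Itgam, of the lymphocyte list Cd3e, Cd79b and Lck, and of the glial list Aqp4 and Olig1. That is 2 of 9, 2 of 8, 3 of 9, 3 of 9 and 2 of 10 members with a usable spot. Their summed signals in C6 were 77.9, 58.5, 137, 99.4 and 195, against 636, 679, 4150, 490 and 589 in liver. Over the other lines the sums ranged from 175 to 313, 44.1 to 59.5, 76.9 to 114, 78.9 to 89.6 and 96.5 to 228. Members with a usable spot differed between arrays. The part of other cell types in the genes high in C6 was not tested.

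Most other genes of interest in liver cancer placed C6 among the other lines with a usable spot. Gstp1, a transferase of preneoplastic liver, had log2 signals of 13.26 in C6 and in C5F, 13.48 in L2 and 10.20 in liver. Its N1 spot was contaminated. S100a4, a calcium-binding protein linked to metastasis, read 3530 in C6, above 864 in C5F and 2810 in L2 and under 8950 in N1. Gpc3, a tumour glypican, read 17.1 in C6, close to 16 in L2 and 21.6 in N1, against 1140 in C5F. Met, the receptor of hepatocyte growth factor, read 14.5 in C6 and 15.4 in L2, with C5F near background at 14.9 and N1 at the floor. Nme1, a nucleoside diphosphate kinase studied as a metastasis suppressor, read 207 in C6 and 185 to 275 in the others. Cd44, a hyaluronan receptor, had log2 signals of 7.27 in C6, 7.22 in L2 and 5.60 in N1. C6 was thus brightest by a small margin, and the C5F spot was irregular. Spp1 was near background on all arrays, and the C6 spot of Mki67 was irregular.

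C6 also shared genes with 1 other line at a time. The counts that follow use floored signals, and many of these gaps fall under 4-fold when spots near background are bounded. Together with L2, C6 was at least 4-fold above both C5F and N1 in 22 genes (0.417%) and below them in 13 (0.246%). With C5F these counts were 11 (0.208%) and 15 (0.284%), and with N1 10 (0.189%) and 4 (0.0758%). The genes high in C6 and L2 included Msln, the surface protein mesothelin, with log2 signals of 5.01 and 5.78. Lama3, a chain of epithelial laminin, read 5.32 in C6 and 4.40 in L2. Both were near background in C5F, N1 and liver. Cdh3, P-cadherin, showed the same layout with 4.67 and 5.86. With bounds these 3 were at least 2.48-, 1.62- and 1.95-fold above C5F and N1. Fst, follistatin, read 7.32 in C6 and 5.74 in L2, at least 4.09-fold above. Inhbb, the activin beta-B subunit that follistatin binds when assembled into activin, read 6.09 and 6.95. Nid2, a basement membrane nidogen, was above background in all lines, with 7.29 and 8.17 against 4.79 in C5F and 4.20 in N1, so that the dimmer of the pair was 5.65-fold above C5F.

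The genes low in both C6 and L2 included Fkbp10, a collagen chaperone, near background in both and at 8.05 in C5F and 8.11 in N1, at least 22.5-fold apart. Pla2g2a, a secreted phospholipase, was at the floor in both and read 6.22 and 8.03 in C5F and N1, at least 6.36-fold apart. Selenbp1, a selenium-binding protein of liver, was above background everywhere, with 6.71 in C6, 5.18 in L2, 9.37 in C5F, 10.27 in N1 and 7.78 in liver, 6.28-fold apart.

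**Figure D5:**
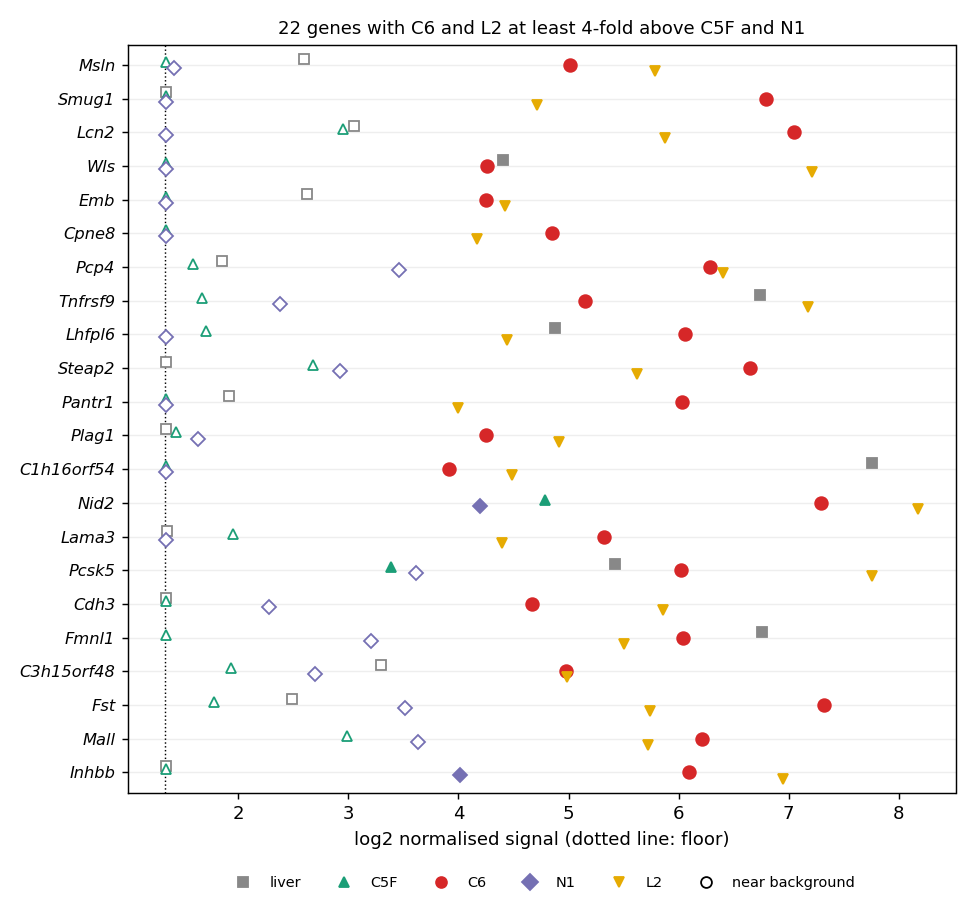
Log2 normalised signal of the 22 genes in which C6 and L2 both lay at least 4-fold above C5F and N1, 1 array each, with open symbols for spots near background. In all but Nid2, Pcsk5 and Inhbb both C5F and N1 are near background.

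With its class partner C5F, C6 shared high levels of Aqp8, a water channel of liver, at 6.59 in C6, 8.35 in C5F and 7.72 in liver on the log2 scale, and near background in N1 and L2, at least 7.38-fold apart. Igfbp1, an insulin-like growth factor carrier of liver, read 26.2 in C6 and 1880 in C5F with N1 and L2 at the floor. With bounds C6 was at least 2.01-fold above N1 and L2. The shared low genes were Aldh3a1, an aldehyde dehydrogenase of tumours, with 62.8 in C6 and 3.19 in C5F against 1120 in N1 and 1140 in L2, and Glrx, glutaredoxin, near background in both and at least 20.2-fold lower than in N1 and L2. Tceal9 was 15.3-fold lower, with every line above background. C6 thus sat between C5F and the high-metastatic lines for Igfbp1 and for Aldh3a1. With N1, C6 shared Pparg, the nuclear receptor of fat cell formation, at 6.54 in C6 and 9.40 in N1 against 3.77 in C5F and 3.60 in L2. It also shared Cbs, cystathionine beta-synthase, at 7.13 and 7.05, near background in C5F and L2 and at 6.53 in liver, though a second Cbs probe was near background in all lines.

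Neighbouring genes rarely moved together. Neighbours here are successive genes among the 5277 compared genes placed in the order of the RefSeq gene table. Genes not measured may lie between them. In C6, 3 pairs of neighbours were at least 3-fold above, namely Wfdc18 with Wfdc21, both of the whey acidic protein family, Crybb1 with Cryba4, both lens crystallins, and Mab21l4 with Sned1. No pair was below. The other lines had 3 to 5 such pairs above and 0 to 1 below. Neighbours with similar sequences, such as Wfdc18 and Wfdc21 or Crybb1 and Cryba4, may share signal between probes, which was not tested.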

How the data were processed

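Per the file headers, the authors quantified 5 CodeLink scans with CodeLink Expression Analysis 4.1.0.29054. The deposited files hold a raw intensity per spot, already background-subtracted, together with a normalized intensity, obtained as raw value over array median (the deposited series matrix is identical, largest difference 0). Per the labels' protocols, RNA was extracted with ISOGEN.

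Raw intensity of 33849 discovery probes was used. Irregular, contaminated and masked spots were set to missing, and only spots called above (G) or near (L) background were kept. Signals were quantile normalised with limma 3.58.1 in R 4.3.3, floored at 2.53, the middle value of near-background signals, and log2-transformed. Tables were read with the data.table package (1.17.8), pandas 2.3.3 and numpy 2.4.6 in Python 3.11.15.

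Of the probes, 16753 had 1 gene in the platform annotation, 165 several and 16931 none, and 16724 of the 16753 matched the gene annotation of RefSeq (assembly GRCr8). The probe with the highest mean over the 4 lines, usable on all of them, stood for its gene. A gene counted as above when C6 was above background, and as below when the 3 other lines were. Folds against spots near background use the lowest signal called above background on that array as a bound.

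With 1 array per line no test was made, and nothing says whether a second culture would give the same values. The number of arrays limits the precision. Members, the 53 gene lists, of which 7 hold cell type markers, and the rules were chosen with earlier results of these data known. Named were the 15 widest bounded margins above and the 15 below, up to 4 members per list past 3-fold, and 14 liver cancer genes (Alb, Afp, Gpc3, Gstp1, Cdh1, Vim, Cd44, Met, Spp1, S100a4, Mki67, Nme1, Igfbp1 and Aldh3a1), leaving out provisional symbols. Other genes named were chosen after their values were seen. The counting was tested on simulated data with planted differences. These were planted only in genes well above background in every line, so the test says nothing on margins that rest on spots near background. Alternatives were other scalings, the authors' normalized intensity, bounds, an offset of 50, irregular spots kept, stricter and looser demands on spots, and leaving out each other line.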

Additional observations from a re-analysis of the deposited data

Results flagged for a closer look

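Probes without a gene name were outside the comparison of named genes. Of 4516 such probes measured in a line, C6 was at least 3-fold above the other lines in 36 (0.797%), 4-fold in 29 (0.642%) and 8-fold in 11 (0.244%), and 9 of the 11 were near background in liver. Probe GE17959 had log2 signals of 8.81 in C6, 5.01 in N1, 4.37 in L2 and, near background, 3.54 in C5F and 3.06 in liver, 13.9-fold above N1. Probe GE1178926 read 7.65 in C6 and was near background in the other lines, at least 15.4-fold above, with an irregular liver spot. C6 was 3-fold below in 5 unnamed probes (0.111%), and the widest margin with a bound, at least 2.50-fold, was that of GE15436.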

How the results depend on the processing

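No paired analysis was possible because each group holds 1 array and the labels carry no shared replicate numbers. At 3-, 4- and 8-fold, C6 lay above in 55, 37 and 16 genes, which became 33, 22 and 6 with bounds, 9, 3 and 2 with an offset of 50, and 5, 1 and 0 when all 4 lines had to be above background. The 18, 9 and 2 genes below became 1, 0 and 0 with bounds, 0 at each fold with the offset, and 1, 0 and 0 with all 4 lines above background. Below counts were 39 and 14 at 3- and 4-fold with no demand on the other lines' spots, and 28, 18 and 5 with at least 2 other lines usable. At 4-fold below, scaling to the median of probes above background gave 16 and irregular spots kept gave 19. At 8-fold below, irregular spots kept gave 4 and the authors' normalized intensity 0. Leaving out 1 other line (C5F, N1 or L2), which demands less by construction, gave 87 to 100, 62 to 71 and 29 to 34 above, and 42 to 60, 27 to 43 and 4 to 11 below. Lines 4-fold apart numbered 58 (C5F), 22 (C6), 44 (N1) and 59 (L2) with bounds, and 24, 3, 8 and 13 with the offset. Pairings of C6 gave 11 (C5F), 5 (N1) and 14 (L2) with bounds, 4, 0 and 2 with the offset, and 47 for C5F with irregular spots kept. The authors' normalized intensity shifted the median difference of all genes by 0.17 and the median scaling by -0.10. Relative to all genes, the glutathione, fatty acid oxidation and hypoxia lists stayed low and the epithelial and chemokine lists high under the 4 scalings and with bounds. For the 48 named genes only the margin of C6 below the others was followed, and only one of at least 3-fold could count as weaker or reversed. With bounds 5 such margins fell under 3-fold, with the offset 6 and with the authors' normalized intensity 2. Gng12 reversed, to -0.40 with irregular spots kept, and the cause was not tested. Smaller margins, and those of C6 above the others, were not checked gene by gene for a change of direction in this way. Margins under 3-fold with bounds, and all near-background values, are limited by signal over background, and 1 array per line leaves the spread between cultures unknown.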

Other observations

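Several developmental and lineage genes not described above read high in C6 with small bounded margins. Gli1, the hedgehog pathway effector, had a log2 signal of 4.11 in C6 and Gcm1, a placental transcription factor, 4.31, with all other arrays near background, at least 1.32- and 1.53-fold above the other lines. Prl8a9, a placental prolactin family member, read 4.66 in C6 alone, at least 1.94-fold above. Gjb5, a gap junction protein of stratified epithelia, read 5.57 in C6, at least 3.64-fold above. The peptidase Mme (neprilysin) read 4.78 and the ectoenzyme Bst1 4.97 in C6, at least 2.10- and 2.41-fold above, and both were near background on the other arrays. Smug1, a uracil DNA glycosylase, read 6.79 in C6 and 4.72 in L2 and was at the floor in C5F, N1 and liver, 4.20-fold above L2.

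Low in C6 were also Plxnd1, a semaphorin receptor, and Id2, an inhibitor of differentiation factors, with bounded margins of at least 1.02- and 1.08-fold. Klf5, a transcription factor of proliferating epithelia, was at the floor in C6 and read 13.7 in C5F, 17.8 in L2 and 48.9 in N1, at least 1.16-fold.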
